A study of Mus musculus and Homo sapiens with 83 samples.

Results

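The 8 germline and meiosis genes Stra8, Brdt, Hormad1, Dazl, Ddx4, Mael, Sycp1 and Sycp3 were followed in mouse embryonic stem cells (mESCs) before and during differentiation. They were taken by name, each symbol being matched to its Ensembl gene ID with the version ignored, and they are 8 of the 55401 mouse gene IDs counted in each mESC library. All cells were of the E14 line from strain 129/Ola, and the labels name no genetic change. The 6 cells of day 0 came from cultures on mouse embryonic fibroblast (MEF) feeders with leukemia inhibitory factor (LIF), the cytokine that keeps mESCs undifferentiated. The 7 cells of day 3, the 6 of day 6 and the 5 of day 9 came from cells moved to gelatin-coated dishes without feeders and without LIF, where they differentiated in no set direction. Day 0 thus differs from the later days in feeders, coating and LIF together. Each library holds the cytoplasmic RNA of 1 cell, amplified on a chip by a protocol based on Smart-seq2, so nuclear RNA was left out. The labels name no separate cultures, so a day is 1 sample here and no p-value was computed. Levels are given as CPM, counts scaled to a fixed total, that is the reads of a gene for every 1000000 reads on genes in 1 cell or in all cells of a day. Intervals are exact at 95% and cover counting error only, not the difference between cells.

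These genes act in germ cells. Stra8 is switched on by retinoic acid as germ cells enter meiosis, the synaptonemal complex and chromosome axis proteins then hold paired chromosomes together, and RNA-binding proteins of the germ granule guard and translate germ cell messages. In mESCs many such genes are held down by PRC1.6, a Polycomb complex that meets DNA through MGA with MAX, which read the E-box, and through E2F6 with its partner TFDP1. As the embryo leaves pluripotency, CpG-rich promoters of germline genes are known to gain DNA methylation, laid down mainly by DNMT3B and DNMT3A.

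The promoters were read for those motifs because they are where PRC1.6 and DNA methylation are known to act on this class of gene. All 8 genes were matched in the RefSeq promoter table of build GRCm38.p6, which is mm10, and the 250 bases before each transcription start were searched on both strands. The E-box was CACGTG, which reads the same on both strands, and the E2F6-type motif was GCGGGA, or TCCCGC on the other strand. The E-box was found before 6 of the 8 genes, all but Stra8 and Dazl, against 6.02% of all 32851 promoters in the table. The E2F6-type motif was found before 4, Hormad1, Ddx4, Mael and Sycp3, against 16.9% of all promoters, and the same 4 held both motifs, against 1.45%. No E-box match overlapped an E2F6-type match in these genes. The number of CpG dinucleotides in the window ran from 5 for Stra8 to 31 for Ddx4, with a median of 6 over all promoters and 2 and 16 as their quartiles. Both motifs hold a CpG, and each window but that of Stra8 held more CpG than at least 66.5% of promoters. The shares over all promoters are thus no like-for-like background, and promoters of equal CpG number were not compared. A match describes the letters and was not tested as a binding site, and a window without a match says nothing of the factor. The 4 sequences printed next hold neither motif (Stra8, at chr6:34920698-34920947 on the plus strand), the E-box alone (Brdt, at chr5:107330944-107331193 on the plus strand), or both (Hormad1, at chr3:95559427-95559676 on the plus strand, and Mael, at chr1:166238745-166238994 on the minus strand). They run 5′ to 3′ to the base before the start, and capitals mark the motif matches. The matches depend on the start the table uses: the windows of Stra8 and Ddx4 lie inside the span RefSeq gives for the whole gene, and that of Brdt partly so, and sequence before the outermost start of these genes was not searched.
Stra8: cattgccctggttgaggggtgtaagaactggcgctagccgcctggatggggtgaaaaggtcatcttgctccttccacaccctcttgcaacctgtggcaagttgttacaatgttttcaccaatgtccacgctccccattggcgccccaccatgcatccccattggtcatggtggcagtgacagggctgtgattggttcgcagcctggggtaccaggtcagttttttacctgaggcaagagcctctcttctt
Brdt: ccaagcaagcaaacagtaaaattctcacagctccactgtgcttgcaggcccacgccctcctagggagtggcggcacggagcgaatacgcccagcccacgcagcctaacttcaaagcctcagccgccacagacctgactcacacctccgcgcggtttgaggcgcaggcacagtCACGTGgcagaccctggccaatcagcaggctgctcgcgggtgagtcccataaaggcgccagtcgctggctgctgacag
Hormad1: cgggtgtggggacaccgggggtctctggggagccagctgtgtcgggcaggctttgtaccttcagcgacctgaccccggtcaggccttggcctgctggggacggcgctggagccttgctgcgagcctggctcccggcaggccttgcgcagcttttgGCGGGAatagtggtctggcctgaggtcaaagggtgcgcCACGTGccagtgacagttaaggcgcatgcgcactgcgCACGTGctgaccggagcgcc
Mael: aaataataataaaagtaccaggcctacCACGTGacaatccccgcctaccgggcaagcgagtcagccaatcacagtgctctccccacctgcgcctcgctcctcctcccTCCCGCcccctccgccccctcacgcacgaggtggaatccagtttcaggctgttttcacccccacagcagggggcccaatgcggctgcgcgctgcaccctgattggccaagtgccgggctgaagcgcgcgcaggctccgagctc

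**Figure D1:**
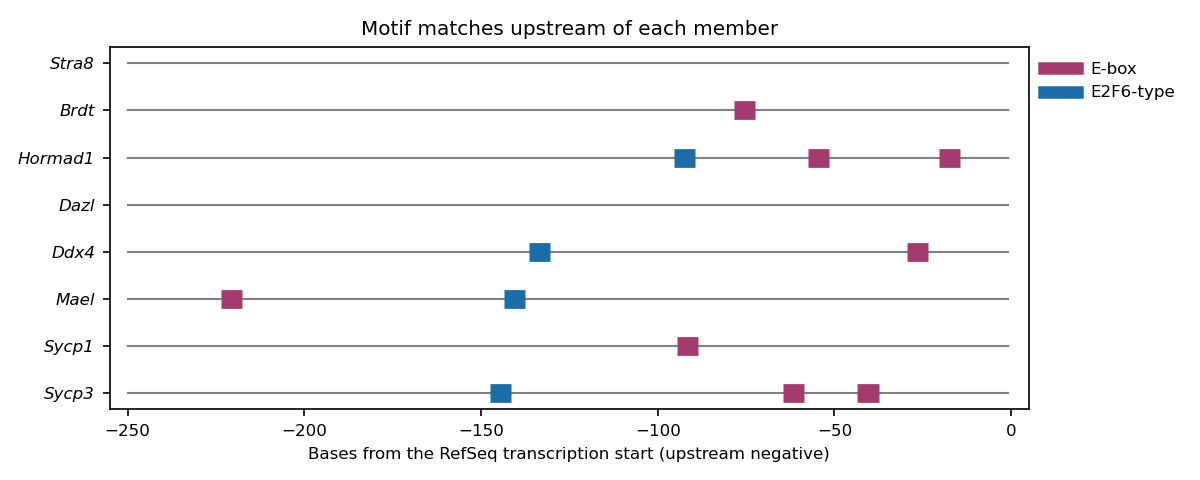
Position of each motif match in the 250 bases before the RefSeq transcription start of the 8 genes; the x axis is the distance from the start in bases, upstream negative, and squares are E-box or E2F6-type matches. Stra8 and Dazl hold no match, Brdt and Sycp1 hold an E-box alone, and Hormad1, Ddx4, Mael and Sycp3 hold both motifs.

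The 24 mESC libraries held 3913595 to 16367029 reads on genes, with a median of 8761882, so 3 reads in a single cell correspond to 0.183 to 0.767 CPM. One gene listed by its clone name, CT010467.1, took 13.0% to 75.2% of the gene reads of a library. Mitochondrially encoded genes took a median of 13.6% at day 0 and 3.53%, 5.72% and 4.99% at days 3, 6 and 9, and 4 of the 6 day 0 cells (1 to 4) were above 10%. Cells 1 and 2 of day 0 also held the fewest genes of any library at an equal depth of 1000000 reads, 3455 and 4334 against 6412 or more elsewhere. These values differ by day as the levels below do, and their part in them was not tested. Ratios were only recomputed without the day 0 cells above 10%, and with totals lacking CT010467.1 or mitochondrially encoded genes. As a check of the labelled cell type, 9 of 10 pluripotency markers had reads on every day. Their summed level had a median of 11856 CPM at day 0 and 7222 CPM at day 9. Most of it was Dppa5a, at 10409 and 6000 CPM in the sums of these days, so it says little of the other markers. By the relative ratio defined below, 2 of 9 measured markers were at least 2-fold higher at day 9, against 25.2% of all genes. Another 3 were lower, against 23.8%. The tenth marker, Sox2, is listed at 0 in all 24 cells. It lies inside the long noncoding gene Sox2ot, which had reads in 23 cells.

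Stra8, which starts the meiotic programme in answer to retinoic acid, was lower at each later day. Its gene lies on chromosome 6 from 34920163 to 34939344 (mm10). At day 0 its level ran from 0.132 CPM in cell 2 to 85.4 CPM in cell 3, with a median of 48.6. At day 3 it ran from 7.63 to 57.7 CPM with a median of 15.0, and at day 6 it was 7.21 CPM in cell 1, 45.8 CPM in cell 5 and 0 in the other 4 cells. The 5 cells of day 9 stood at 2.04, 2.68, 0, 0 and 0 CPM. All day 0 and day 3 cells thus held Stra8 reads, while 2 of 6 cells at day 6 and 2 of 5 at day 9 did. Cell 2 of day 0 was the only day 0 cell under 42.4 CPM, and through it the ranges of day 0 and day 9 overlap. Summed over the cells, Stra8 stood at 49.2 CPM (47.1 to 51.2), 25.9 (24.7 to 27.2), 8.83 (8.14 to 9.56) and 0.740 (0.487 to 1.08) on days 0, 3, 6 and 9. The day 9 sum was 66.5-fold lower than that of day 0 (45.6 to 101), and 11.9-fold lower than that of day 6 (8.12 to 18.3). Since 80.4% of the day 6 reads came from cell 5, the day 6 level rests on that cell.

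Brdt, a testis-specific BET protein that reads acetylated histones in spermatids, had lower day sums from day 3 on. It lies on chromosome 5 from 107331116 to 107387061. At day 0 its lowest level was 0.265 CPM, its median 6.71 and its highest 112 CPM, in cell 1. Day 3 ran from 0 to 4.12 CPM with a median of 0.102, and day 6 from 0 to 9.26 CPM with a median of 5.09. At day 9 the cells stood at 7.92, 0.282, 0, 0 and 0.111 CPM. Cell 1 held 76.6% of all day 0 reads of the gene, and cell 1 of day 9 held 91.2% of those of day 9. The day sums were 28.0 CPM (26.5 to 29.6), 1.02 (0.778 to 1.31), 4.93 (4.42 to 5.49) and 0.932 (0.645 to 1.30) at days 0, 3, 6 and 9. Day 6 was thus 4.85-fold higher than day 3 (3.68 to 6.48), and day 9 was 30.1-fold lower than day 0 (21.4 to 43.6). The ranges over cells of day 0 and each later day overlap.

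Hormad1, Sycp1 and Sycp3 encode proteins of the meiotic chromosome axis and synaptonemal complex, and their levels ran differently over the days. Hormad1, a HORMA-domain protein of unsynapsed axes, lies on chromosome 3 from 95559677 to 95587863. It had no reads in cells 1 and 2 of day 0, and the day 0 median was 1.70 CPM with 48.7 CPM in cell 5 as the highest value. All 7 cells of day 3 held it, from 6.85 to 73.5 CPM with a median of 20.5, and all 6 of day 6, from 3.10 to 48.7 CPM with a median of 12.4. Day 9 stood at 4.34, 2.40, 0.311, 0.147 and 0.332 CPM. Thus every day 3 cell was above the highest day 9 cell, while both days overlap the range of day 0. The day sums were 9.40 CPM (8.53 to 10.3), 31.3 (29.9 to 32.8), 17.6 (16.7 to 18.7) and 1.12 (0.806 to 1.52). Day 3 was 3.33-fold higher than day 0 (3.00 to 3.71), and day 9 was 8.37-fold lower than day 0 (6.07 to 11.8) and 15.7-fold lower than day 6 (11.5 to 22.0).

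Sycp1, the transverse filament of the synaptonemal complex, was near the floor until day 9. It lies on chromosome 3 from 102818499 to 102936100. No cell of days 0, 3 and 6 exceeded 0.483 CPM, and the day sums were 0.242 CPM (11 reads in 5 cells), 0.0334 (2 reads in 2 cells) and 0.0586 (4 reads in 2 cells). At day 9 the cells stood at 2.04, 0, 3.31, 0 and 0 CPM, and the sum was 1.10 CPM (0.783 to 1.49). This was 4.54-fold higher than day 0 (2.28 to 9.80), from 40 reads in cells 1 and 3, of which 80% were in cell 3. At the depth of the shallowest library, 3.75 of the 6 day 0 cells would still be expected to show a read. The pseudogene Sycp1-ps1 had 0 reads.

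Sycp3, a lateral element protein, had 0 reads in all 24 cells. This allows up to 0.0143 CPM over all mESC reads and a share of up to 12.5% of cells with a read. The gene lies on chromosome 10 from 88459587 to 88473236, and its end overlaps Chpt1, which had 1104 reads in 22 cells. No source used here states whether the counting used strand, and the part of this overlap in the 0 was not tested.

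Dazl, Ddx4 and Mael encode RNA-binding or germ granule proteins. Dazl, whose sums were close to each other until day 6 and lower at day 9, binds germ cell mRNAs and promotes their translation, and lies on chromosome 17 from 50279393 to 50293620. Its lowest, median and highest cells were 0, 1.29 and 40.9 CPM at day 0, 0, 9.11 and 35.9 CPM at day 3, and 0, 3.73 and 53.3 CPM at day 6. At day 9 it was 7.15 CPM in cell 1, 13.0 CPM in cell 3 and 0 in the other 3 cells. The ranges of day 0 and each later day overlap. The day sums were 11.7 CPM (10.7 to 12.7), 14.1 (13.2 to 15.1), 11.3 (10.5 to 12.1) and 4.22 (3.58 to 4.94), and day 9 was 2.76-fold lower than day 0 (2.31 to 3.33). Over the 2 day 0 cells with under 10% mitochondrially encoded reads, cells 5 and 6 at 0.161 and 2.05 CPM, that direction turned.

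Ddx4, the Vasa RNA helicase that marks the germ lineage, lies on chromosome 13 from 112598333 to 112652633. Its median cell was 0.573 CPM at day 0, with 19.998 CPM in cell 4 as the highest value, 2.08 CPM at day 3, with 27.4 CPM in cell 7, and 0.524 CPM at day 6, with 3.44 CPM in cell 2. All 5 cells of day 9 held reads, at 2.04, 2.54, 0.207, 2.50 and 6.30 CPM. Reads of Ddx4 were thus found in 5 of 5 cells at day 9 and 4 of 6 at day 0, and the ranges of both days overlap. Its sums were 3.01 CPM (2.53 to 3.56), 8.14 (7.44 to 8.90), 1.22 (0.968 to 1.51) and 2.79 (2.28 to 3.39). The ratio of day 9 to day 0 was 0.929 (0.711 to 1.21), an interval that includes equal levels.

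Mael, maelstrom, works in piRNA silencing of transposons in the male germline. It lies on chromosome 1 from 166201385 to 166238744. At day 0 its lowest, median and highest cells were 0, 2.41 and 44.0 CPM. All 7 day 3 cells held it, from 8.97 to 55.5 CPM with a median of 27.8, and all 6 day 6 cells, from 0.675 to 124 CPM with a median of 10.8. Day 9 stood at 8.43, 0, 0, 2.21 and 7.08 CPM. Every day 3 cell was above the highest day 9 cell, and both overlap day 0. Its sums were 13.8 CPM (12.8 to 14.9), 33.9 (32.4 to 35.4), 29.6 (28.4 to 30.9) and 3.07 (2.53 to 3.69), so that day 9 was 4.50-fold lower than day 0 (3.68 to 5.56) and 9.66-fold lower than day 6 (7.98 to 11.8). Of the day 6 reads, 64.6% came from cell 5, and of the day 0 reads 61.0% came from cell 1. The median cell of day 9, at 2.21 CPM, was close to that of day 0.

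**Figure D2:**
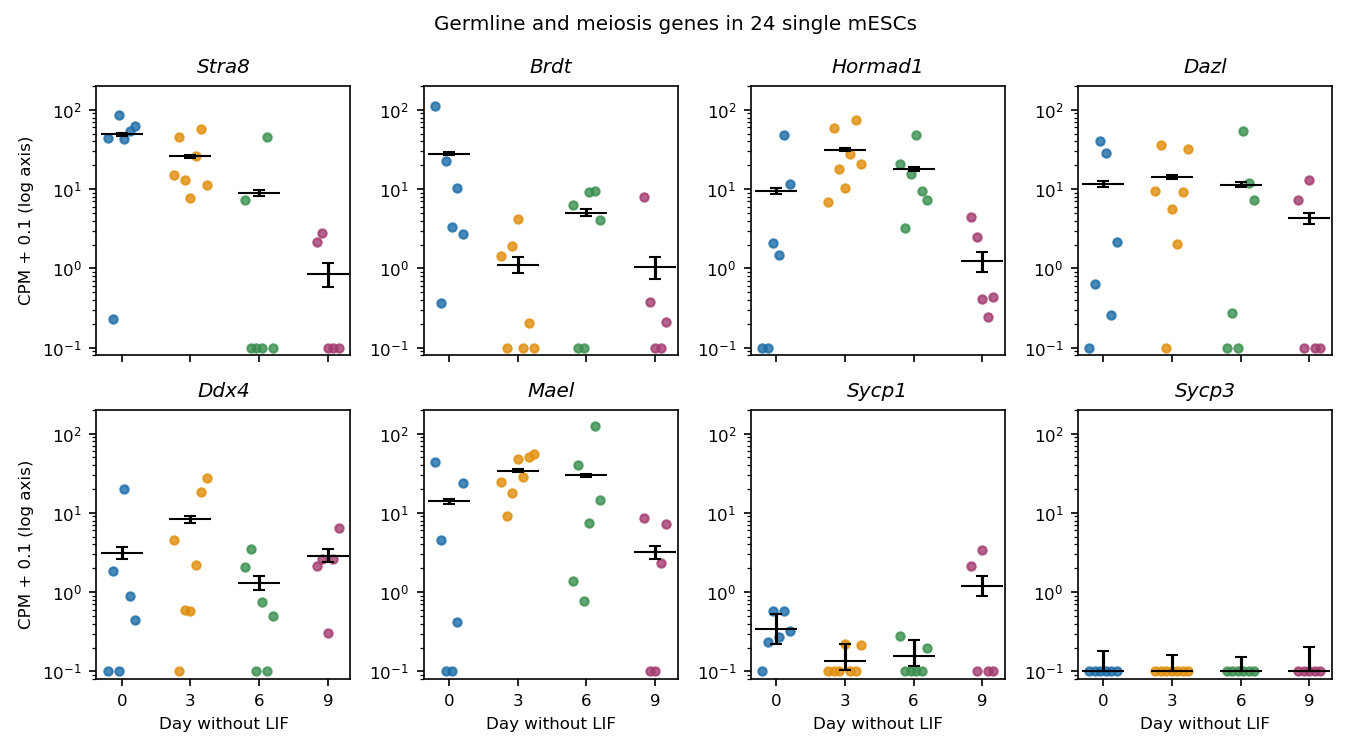
Level of each gene in every cell by day without LIF; the y axis is CPM plus 0.1 on a log scale, points are cells, horizontal lines are the sums of a day and bars their exact 95% Poisson intervals. Points at the bottom of a panel are cells with 0 reads, as all 24 cells are for Sycp3; for Hormad1 and Mael every day 3 cell sits above every day 9 cell.

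To set these levels against other genes, each day was compared with day 0 by a relative log2 ratio. This is log2 of the day sums with 1 CPM added to each, less the median of the same ratio over all genes measured, those with 20 or more reads in the pair of days and reads in 2 or more libraries. That median was 0.09, 0.49 and 0.71 at days 3, 6 and 9, and a gene is called higher or lower from 2-fold, a relative log2 ratio of 1. The 3 comparisons share the 6 day 0 cells, so a high or low day 0 cell moves all of them.

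At day 3, 6 of the 8 genes were measured, and their median relative log2 ratio was 0.63. Of these, 3 were at least 2-fold higher, against 20.7% of all 14758 measured genes. They were Hormad1 at 1.54, Mael at 1.14 and Ddx4 at 1.10. Brdt, at -3.94, was at least 2-fold lower, against 23.5% of all genes, and 0.739% of measured genes had a lower ratio. Stra8 at -0.99 lay just inside the threshold, and Dazl stood at 0.16. Hormad1 moved to 2.72 without day 0 cell 5, and to -0.10 when only the 2 day 0 cells with few mitochondrially encoded reads were kept. Brdt was at -2.20 without day 0 cell 1, and Dazl at 1.19 without day 0 cell 3. Stra8, Mael and Ddx4 lie near the threshold, and several single cells change their call. Leaving out any 1 cell put Stra8 between -1.27 and -0.78, and it passed 2-fold without any 1 of day 0 cells 2, 4, 5 and 6 or day 3 cells 2 and 6. Mael ran from 0.71 to 2.16 and missed 2-fold without day 0 cell 3, 4 or 5 or day 3 cell 7. Ddx4 ran from 0.45 without day 3 cell 7 to 2.24 without day 0 cell 4, and also missed 2-fold without day 0 cell 1, 3, 5 or 6 or day 3 cell 6.

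At day 6, none of the 6 measured genes was at least 2-fold higher, where 25.4% of all 15117 genes were. Stra8 at -2.84, Brdt at -2.78 and Ddx4 at -1.35 were at least 2-fold lower, against 23.1% of all genes. Hormad1 stood at 0.35, Mael at 0.56 and Dazl at -0.53, and the median of the 6 was -0.94. Single cells decided several of these values. Without day 6 cell 5, Stra8 was at -4.49 and Mael at -0.59, and without day 6 cell 4, Dazl was at -1.91. Without day 0 cell 4, Ddx4 was at -0.18, and without day 0 cell 5, Hormad1 was at 1.55. Without day 0 cell 1, Brdt was at -1.07 and Mael at 1.56. Across the other processing settings Brdt reached -0.62, inside the threshold.

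At day 9, 7 genes were measured and 5 were at least 2-fold lower, against 23.8% of all 15512 genes. None was at least 2-fold higher, where 25.2% of all genes were. Stra8 stood at -5.56, Brdt at -4.62, Hormad1 at -3.00, Mael at -2.57 and Dazl at -1.99. Only 0.0774% of the measured genes had a lower ratio than Stra8, and 0.393% than Brdt. For Hormad1, Mael and Dazl these shares were 3.35%, 5.40% and 9.41%. Ddx4 at -0.79 and Sycp1 at 0.05 were called neither way, and the median of the 7 was -2.57, where the median of all genes is 0 by construction. Leaving out any 1 cell kept Stra8 between -5.94 and -5.32 and kept Brdt, Hormad1 and Mael past the threshold, with Brdt at -2.90 and Mael at -1.58 without day 0 cell 1 and Hormad1 at -1.80 without day 0 cell 5. Brdt was at -5.49 without day 9 cell 1, and Mael at -3.16 without day 9 cell 5. Across the other processing settings Mael reached -0.74 and Hormad1 -0.99, both inside the threshold. Dazl lost its call without day 0 cell 3, at -0.94, and stood at 0.33 against the 2 day 0 cells with few mitochondrially encoded reads. Ddx4 ran from -1.33 without day 9 cell 5 to 0.39 without day 0 cell 4, and it also passed 2-fold without day 0 cell 3, 5 or 6.

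**Figure D3:**
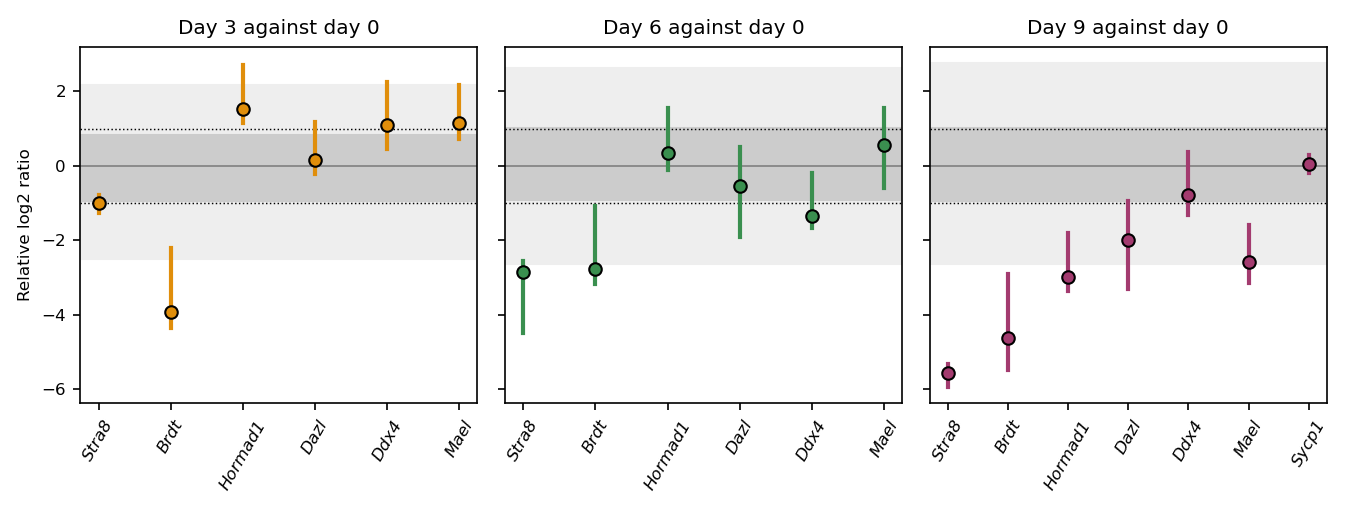
Relative log2 ratio of each measured gene at days 3, 6 and 9 against day 0; points use all cells, and vertical lines span the values when any 1 cell is left out. Dark and light bands hold the middle 50% and 90% of all measured genes and dotted lines mark 2-fold; at day 9 Stra8, Brdt and Hormad1 sit below the light band.

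Read cell by cell, the genes were not all present together. The number of the 8 genes at 1 CPM or more had a median of 3.5 (2 to 5), 5 (4 to 6), 4 (1 to 5) and 2 (2 to 7) on days 0, 3, 6 and 9. Their summed level had a median of 109 CPM (7.28 to 200), 86.0 (50.6 to 210), 42.1 (16.1 to 200) and 13.8 (4.86 to 34.0) on these days. Every day 3 cell was above every day 9 cell in summed level, and day 0 cell 2, at 7.28 CPM, fell within the day 9 range. The highest number, 7 genes, was in day 9 cell 1, all of them at 2.04 to 8.43 CPM. That library had the fewest gene reads, 3913595, the most genes at equal depth, 13299, and 73.1% of its reads on CT010467.1. It gave 1 of the 2 cells with Stra8 reads at day 9, and the highest day 9 cell for Brdt, Hormad1 and Mael. Over the 24 cells, the 21 pairs among the 7 genes with reads had Pearson correlations of log2(CPM + 1) from -0.40 to 0.40 with a median of 0.09. The pairs share libraries and depth, and this is a description of these cells.

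**Figure D4:**
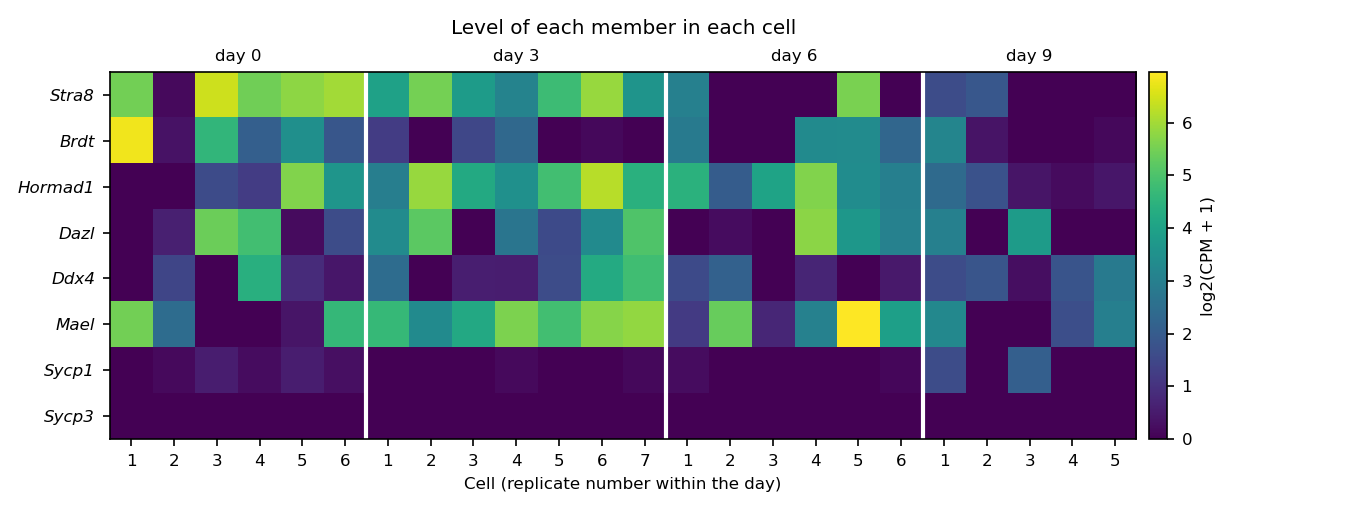
Level of each gene in each cell as log2(CPM + 1), with genes as rows and the 24 cells as columns ordered by day and by their replicate number. Stra8 is high in 5 of 6 day 0 cells and all day 3 cells, Hormad1 and Mael are present in all day 3 and day 6 cells, and day 9 cell 1 holds 7 of the 8 genes.

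**Figure D5:**
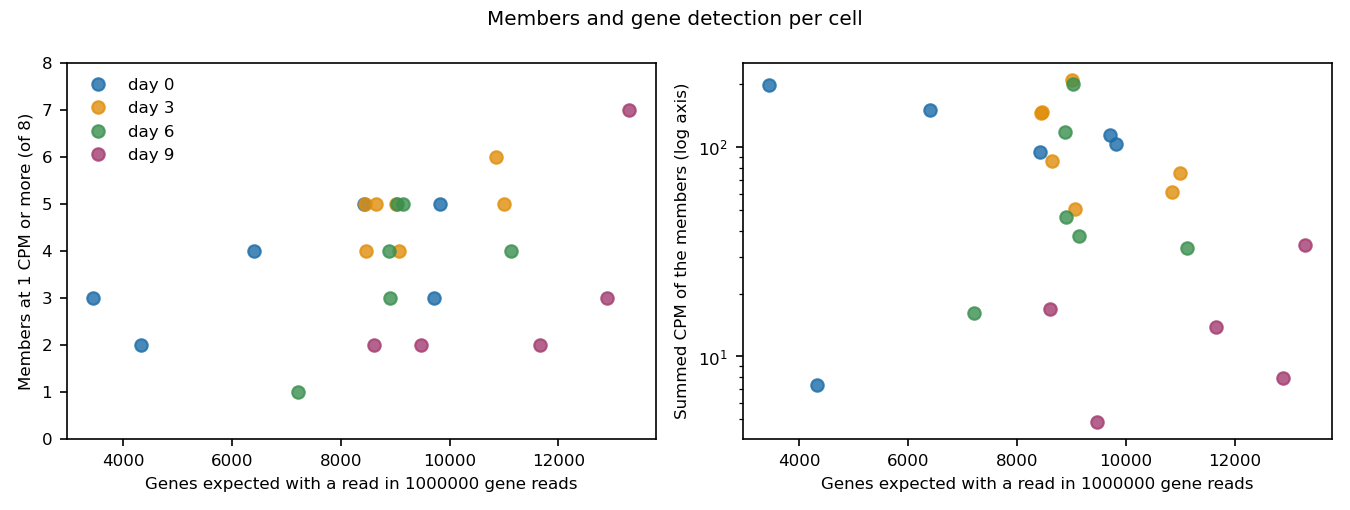
Number of the 8 genes at 1 CPM or more (left) and their summed CPM on a log axis (right) against the genes expected with a read in 1000000 gene reads of the same cell; points are cells, coloured by day. The 5 day 9 cells lie at 8612 to 13299 genes and at 34.0 CPM or less, and day 0 cells 1 and 2 have the fewest genes.

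Genes of the same pathways were taken from 9 lists, and here too levels are given for day sums. Among 12 genes of the synaptonemal complex and meiotic cohesin, 10 were measured at day 9, with 3 at least 2-fold higher and 5 lower, against 25.2% and 23.8% of all genes, and a median relative log2 ratio of -0.62. Smc1b, a meiotic cohesin subunit, stood at 109 CPM at day 0 and 13.9, 44.3 and 6.85 CPM at days 3, 6 and 9, with a relative log2 ratio of -4.52 at day 9. Stag3, its meiotic cohesin partner, stood at 12.3, 12.8, 20.1 and 3.59 CPM and at -2.24, or -3.30 without day 9 cell 2. Syce2, a central element protein of the synaptonemal complex, stood at 99.8, 117, 148 and 56.1 CPM and at -1.53. Stag3 and Syce2 were thus near their day 0 level or above it until day 6, as Hormad1 and Mael were, whereas Smc1b was lower at day 3, at -2.98. Without day 0 cell 1, Smc1b was at -0.81 at day 3 and at -2.37 at day 9, and without day 9 cell 5 at -6.05. Sycp2, Rec8 and Tex11 went the other way, at 0.0439, 0.0879 and 0.593 CPM at day 0 and 3.75, 7.84 and 4.69 CPM at day 9. Day 9 cell 3 held 98.5% of the day 9 Sycp2 reads, cell 4 82.5% of those of Rec8, and cell 1 38.6% of those of Tex11. In meiotic recombination, 12 of 16 genes were measured at day 9, 3 higher and 4 lower, near the 25.2% and 23.8% of all genes, with a median of -0.17. Rec114, which helps SPO11 cut DNA, stood at 19.5, 14.1, 27.0 and 1.56 CPM and at -3.71, or -2.74 without day 0 cell 5 and -4.37 without day 9 cell 1. Mnd1, a strand exchange factor, stood at 60.6, 69.3, 59.3 and 25.01 CPM and at -1.95. Prdm9, Msh4 and Msh5 went the other way, at 0.0879, 0.835 and 0.330 CPM at day 0 and 2.58, 6.14 and 5.29 CPM at day 9. Day 9 cell 4 held 95.7% of the day 9 Prdm9 reads, cell 2 79.9% of those of Msh4, and cell 3 82.9% of those of Msh5.

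The piRNA and germ granule list, to which Mael and Ddx4 are close in function, had 7 of 13 measured genes at least 2-fold lower at day 9, against 23.8% of all genes, and 1 higher, against 25.2%, with a median of -1.78. At day 3 it had 5 of 14 lower, against 23.5% of all genes, and at day 6 3 of 12, near the 23.1% of all genes. Mov10l1, an RNA helicase of piRNA biogenesis, stood at 13.6, 3.49, 10.7 and 0.219 CPM, with a relative log2 ratio of -4.29 at day 9 that stayed between -4.54 and -3.96 without any 1 cell. Gtsf1, a zinc finger protein that acts with PIWI proteins, stood at 9.12, 8.29, 12.6 and 1.73 CPM and at -2.60, or -3.23 without day 9 cell 2. Tdrd12, a Tudor protein of piRNA biogenesis, stood at 50.2, 24.5, 42.8 and 5.37 CPM and at -3.71. It was at -2.61 without day 0 cell 1, at -5.11 without day 9 cell 5, and at 1.61 when only the 2 day 0 cells with few mitochondrially encoded reads were kept. Of the other testis and germline genes known to be silenced by promoter methylation, 10 of 12 were measured, with 2 higher, against 25.2% of all genes, 5 lower, against 23.8%, and a median of -1.04. Fkbp6, a co-chaperone needed in spermatogenesis, stood at 1.69 CPM at day 0 and at 16.6, 14.8 and 16.7 CPM later, the opposite direction to Stra8, with a relative log2 ratio of 2.01 that was 0.80 without day 9 cell 3. Rpl10l, a ribosomal protein gene of the testis, stood at 64.8, 62.0, 52.2 and 35.2 CPM and at -1.57, but at -0.68 without day 0 cell 2 and -3.41 without day 9 cell 3, and reads shared with its close copy Rpl10 make it uncertain.

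Primordial germ cell genes gave 5 measured of 8 at day 9, with 1 higher, against 25.2% of all genes, 2 lower, against 23.8%, and a median of 0.35. Dnd1, an RNA-binding protein needed for germ cell survival, stood at 26.5, 6.86, 11.3 and 0.877 CPM and at -4.58, or -3.91 without day 0 cell 1, and Nanos2 had no reads on any day. The relatives of the 8 genes in other tissues gave 2 higher and 1 lower of 7 measured, against the same 25.2% and 23.8%, with a median of 0.49. Ddx3x, a broadly used relative of Ddx4, stood at 20.8, 48.2, 35.5 and 183 CPM and at 2.38, or 1.78 without day 9 cell 3, and its copies Ddx3y and D1Pas1 make it uncertain.

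Genes known to hold germline promoters down were read in a pair of lists. Of 14 PRC1.6 subunits, all measured at day 9, 4 were at least 2-fold higher and 1 lower, with a median of 0.51, beside 25.2% and 23.8% of all genes. Yaf2, a RYBP relative in the complex, stood at 0.286, 2.79, 14.2 and 15.6 CPM and at 2.98, or 2.15 without day 9 cell 4. Tfdp1, the E2F partner, stood at 2.13, 25.1, 49.7 and 36.7 CPM and at 2.88, or 4.12 without day 0 cell 5. The histone deacetylase Hdac1 stood at 20.3, 46.0, 79.6 and 87.5 CPM and at 1.35, or 2.73 without day 0 cell 1. Cbx3, the HP1 gamma protein, stood at 14.1, 3.00, 21.1 and 5.51 CPM and at -1.93. Of the other subunits named above, Mga stood at 45.1, 19.0, 46.0 and 79.7 CPM and Max at 13.1, 7.67, 15.4 and 30.5 CPM. E2f6 stood at 0.681, 0.851, 5.04 and 3.56 CPM. In the list for DNA and H3K9 methylation, 3 of 9 genes were higher at day 9, against 25.2% of all genes, and 1 lower, against 23.8%, with a median of 0.38, and 7 of 9 were higher at day 6, against 25.4%. Dnmt3b, a de novo DNA methyltransferase named above, stood at 6.02 CPM at day 0 and 44.7, 48.1 and 78.3 CPM later. Its relative log2 ratios were 2.61, 2.32 and 2.79. Dnmt3a, also named above, stood at 64.2, 100, 375 and 138 CPM, so it was lower at day 9 than at day 6. Atf7ip, the partner of the H3K9 methyltransferase SETDB1, stood at 5.78, 16.5, 81.2 and 27.6 CPM and at 1.37 at day 9.

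Retinoic acid genes, the upstream signal of Stra8, gave 2 higher, against 25.2% of all genes, and 6 lower, against 23.8%, of 12 measured at day 9, with a median of -1.12. Cyp26a1, the enzyme that breaks retinoic acid down, had 0 reads at day 0, 0.517 and 0.512 CPM at days 3 and 6, and 22.5 CPM at day 9, from 3 of 5 cells. With day 0 set to 3 reads in its sum, day 9 was at least 341-fold higher. Its relative log2 ratio, which for a gene at 0 depends on the 1 CPM added, was 3.85, or 2.88 without day 9 cell 4. Rara, a retinoic acid receptor, stood at 13.1, 3.77, 7.95 and 3.59 CPM and at -2.33. Rxrb, a partner receptor, stood at 9.91, 2.35, 18.2 and 1.70 CPM and at -2.72, but at -1.18 without day 0 cell 1 and at 0.29 against the 2 day 0 cells with few mitochondrially encoded reads. All the lists are described by counts and medians, and nothing here was tested as particular to a list.

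Among 9814 genes, those whose log2(CPM + 1) was most like the mean of the 8 genes over the 24 cells were Ulk1 (Pearson r 0.67), Rpl39l (0.63), Ugt3a2 (0.63), Hsd17b14 (0.63) and Acp6 (0.62). All 5 were lower at day 9 than at day 0, Ulk1 at 1.70 against 19.9 CPM and Hsd17b14 at 4.79 against 55.9 CPM. Their choice by likeness over the same cells favours such genes, so this is no separate result. For each single gene the closest match had a higher correlation than Ulk1 had with the mean, and the 3 closest genes were named. For Stra8 they were Zfas1 (0.70), Dll1 (0.70) and Crtac1 (0.66), for Brdt Gpr107 (0.68), Fosb (0.65) and Pigs (0.63), and for Hormad1 Optn (0.87), Aplp1 (0.79) and Rarg (0.76). For Mael they were Wdr92 (0.78), Laptm5 (0.76) and Slc35c2 (0.69), for Dazl Xrcc5 (0.72), Hdac3 (0.69) and Hist3h2ba (0.67), and for Ddx4 Tada3 (0.71), Wdfy3 (0.70) and Arhgap9 (0.67). Sycp1 was most like Mgat4c (0.83), Nav3 (0.80) and Grid1 (0.79), over 11 cells with a Sycp1 read. These are the highest of many correlations over cells that share libraries and depth, and they are descriptions.

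Markers of other cell types were read beside these levels. Of 12 feeder fibroblast markers, all had reads at day 0, where the summed level ran from 1.72 to 416 CPM, and 9 had reads at day 9, from 8.54 to 132 CPM. Extraembryonic endoderm markers summed to 42.1 to 137 CPM at day 0 and 227 to 1458 CPM at day 9. Trophoblast markers summed to 0 to 163 CPM and 388 to 2832 CPM on these days. All 10 markers of each list had reads at day 9. Krt18 and Krt8 made up most of the trophoblast sum, at 921 and 610 CPM over the day 9 cells. Of 9 trophoblast markers measured, 5 were at least 2-fold higher at day 9, against 25.2% of all genes, and 1 lower, against 23.8%. Cdx2 and Elf5 stood at 0.740 and 0.0548 CPM at day 9, and Eomes at 8.33 CPM at day 0 and 3.45 CPM at day 9. Day 9 cell 3 stood apart in markers of the two-cell-like state, at 6114 CPM against 8.10 CPM or less in the other day 9 cells. It was also the day 9 cell with the most Dazl and Sycp1. Without that cell, Dazl stood at a relative log2 ratio of -3.31 at day 9. The part of these cell types in the levels of the 8 genes was not tested. The time without LIF and the joint handling of the cells collected on 1 day cannot be told apart.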

How the data were processed

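RNA of 24 single mESCs was used. The authors deposited whole-number read counts per gene, 1 file per cell. Per the submitters' processing notes, the study used the genomes mm10 and hg38 and the tools Bowtie2 2.2.9, Bismark and Trim Galore 0.6.7, with no role given. How the RNA reads were aligned and counted, on which annotation and strand, is not given in the sources used here. Without molecular identifiers, every interval and floor covers counting error alone. The 5 closing lines of each deposited file, which name no gene, held 21.3% to 60.5% of its reads and were left out. One of them, named ambiguous, held 0.851% to 5.06% of the reads. Whether it holds reads of Sox2 or Sycp3, which overlap other genes, was not tested. Of 55401 gene IDs, 55141 were matched to a symbol. Of the 83 samples in the series, the 41 of DNA and the K562 libraries were not used here, and no per-sample column was left unmapped. No cell was removed and no doublet caller was run. Each library is labelled as 1 cell. Among 61 pairs of cells of the same day, 0 were identical, and chi-square divided by its degrees of freedom, on genes of 20 reads or more, was never under 35.5.

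Counts were summed over the cells of a day and divided by gene reads to give CPM. Day sums carry exact Poisson intervals, ratios of plain CPM exact conditional binomial intervals, both at 95%, and a day with 0 reads was set at a floor of 3 reads. Relative log2 ratios used a pseudocount of 1 CPM and were centred on the median of all measured genes, which shrinks the ratio of low genes. With 1 sample a day there was no test. All 8 genes were described. From each of the 9 lists, up to 4 genes with the largest day 9 ratio were named if they had 5 CPM on the higher day and stayed 2-fold without any 1 cell, and otherwise the 2 with the most reads. Mga, Max, E2f6 and Dnmt3a were added because the background names them. Sycp2, Rec8, Tex11, Prdm9, Msh4 and Msh5 were added as genes higher at day 9. Of the most alike genes, 5 were named for the mean and 3 for each gene with reads in at least 6 cells, without clone, predicted or pseudogene names. The genes and lists were chosen with earlier results of these data known. Alternatives were other scalings (edgeR 4.0.16 TMM and DESeq2 1.42.0 size factors in R 4.3.3, used for factors alone), totals without CT010467.1 or without mitochondrially encoded genes, the mean or median over cells, a pseudocount of 0.1 or 10 CPM, a minimum of 1 or 200 reads, no centring, day 0 cells under 10% mitochondrially encoded reads, and leaving out each cell. Calculations used Python 3.11.15 with matplotlib 3.10.9, scipy 1.17.1, pandas 2.3.3 and numpy 2.4.6, and the scripts were tested on simulated counts. Promoter sequences are RefSeq's, build GRCm38.p6.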

Additional observations from a re-analysis of the deposited data

Results flagged for a closer look

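In 7 of the 28 groups of cells examined (7 genes on 4 days), a single cell lay far from the others, with its gap to the next cell above Dixon's 95% limit for the group's range. That limit gives about 1 in 20 groups by chance where values are normally distributed, which CPM with many zeros are not, so the 7 cannot be read against it. Brdt stood at 112 CPM in day 0 cell 1, where the next cell had 22.7 CPM, and at 7.92 CPM in day 9 cell 1, where the next had 0.282 CPM. Hormad1 stood at 48.7 CPM in day 0 cell 5 against 11.5 CPM in the next cell. Ddx4 stood at 19.998 CPM in day 0 cell 4 against 1.72 CPM. At day 6, Stra8 stood at 45.8 CPM in cell 5 against 7.21 CPM, Dazl at 53.3 CPM in cell 4 against 11.9 CPM, and Mael at 124 CPM in cell 5 against 40.0 CPM. Day 6 cell 5 thus stood out for both Stra8 and Mael, and all 7 cells stood out on the high side.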

How the results depend on the processing

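No paired analysis was possible because each day is 1 sample and no result comes from a test. Of 453 recomputed ratios of the 8 genes to day 0, 241 moved by no more than their counting interval. Another 210 moved further without a change of sign in a ratio called 2-fold. Some of these lost their call, as Dazl at day 9 (-0.94) and Ddx4 at day 6 (-0.18) did when 1 cell was left out. A total of 25 changed sign, 23 of them in ratios under 2-fold with all cells and 2 in ratios called 2-fold. Of 144 recomputed counts, 122 stayed within 1.5 times. The other scalings and totals alter only the total of a day, which the centring takes out except through the 1 CPM added. They could thus move most ratios and counts little, and their share of the unmoved values is no sign of stability. At day 3, 2 genes were at least 2-fold lower, in place of 1, with DESeq2 size factors, totals without mitochondrially encoded genes, the median over cells, a pseudocount of 0.1 CPM, or day 0 cells under 10% mitochondrially encoded reads; a pseudocount of 10 CPM left 1 higher in place of 3. At day 6 the median over cells gave 1 lower in place of 3 and 2 higher in place of 0, and 1 was higher with a minimum of 1 read, with day 0 cells under 10% mitochondrially encoded reads, or without centring. At day 9 a pseudocount of 10 CPM gave 3 lower in place of 5. Without any 1 cell, the genes lower and higher numbered 1 to 2 and 1 to 3 at day 3, 2 to 4 and 0 to 1 at day 6, and 5 to 6 and 0 to 0 at day 9. Day 0 cells under 10% mitochondrially encoded reads turned Hormad1 at day 3 (-0.10) and Dazl at day 9 (0.33), Tdrd12 at days 3 and 9 (4.18 and 1.61), Rxrb at days 3 and 9 (1.17 and 0.29) and Dnd1 at day 6 (0.21). The median over cells turned Tdrd12 at day 3 (2.08), Rxrb at days 3 and 9 (1.52 and 0.48) and Dnd1 at day 6 (0.21). Without any 1 cell, Tdrd12 ran from -2.10 to 0.029 at day 3 and Smc1b from -2.15 to 0.38 at day 6, both highest without day 0 cell 1. The cause of these changes was not tested. Sycp1 had 2 to 11 reads in the sums of days 0, 3 and 6, so its ratios have wide counting intervals.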
